A study of Mus musculus with 24 samples.

Results

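Cytosolic ribosomal proteins are the protein parts of the ribosomes that translate nuclear-encoded mRNAs. They were taken here as the rows of the deposited count table named RPL or RPS followed by a digit, RPLP0 to RPLP2 and RPSA, without the numbered pseudogenes and the S6 kinases. Of 35727 rows, 385 had such a name, 282 were numbered pseudogenes and 10 were S6 kinases. Of the 93 left, 7 did not reach 10 counts in 4 libraries, which left 86 members. They comprised 77 core ribosomal proteins (46 of the large and 31 of the small subunit), 7 paralogs of core proteins, the retrocopy Rpl37rt, and Rps19bp1, a nucleolar protein that binds a ribosomal protein and is not one itself. GENCODE M21 types the paralog Rps4l as a transcribed processed pseudogene, like Rpl37rt, and the paralog Rps27rt, also a retrocopy, as protein-coding. All 86 members passed the filter on low counts.

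The libraries were bulk RNA-seq of inguinal white adipose tissue from male mice aged 18 to 22 weeks. The 2 genotypes were wild type (WT) and LPCAT3 deletion (KO). LPCAT3 esterifies lysophospholipids, preferring polyunsaturated acyl chains. Mice ate diets with 60% of calories from fat. Each diet was enriched in saturated fat (SFA), in omega-6 fat (n6) or in omega-3 fat (n3), and each of the 6 groups of genotype and diet had 4 libraries. The design text calls the deletion AdL3KO. The sources used here do not give the promoter behind it, the strain or whether each library came from 1 animal. The p-values therefore measure only the spread between these libraries, which may be technical. The title speaks of mature adipocytes, but no isolation is described in the protocols. All 10 adipocyte markers were detected, and their summed level was 27840 to 37480 counts-per-million (CPM, after scaling of the libraries) across the libraries. Markers of macrophages, endothelium and progenitors were present too, so the values are those of tissue.

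Ribosomes are assembled in the nucleolus from ribosomal RNA made by RNA polymerase I and from ribosomal proteins imported from the cytoplasm. The large subunit carries the site of peptide bond formation, the exit tunnel and a flexible stalk that recruits translation factors, and the small subunit reads the mRNA. The mRNAs of ribosomal proteins start with a run of pyrimidines, the TOP motif, through which mTOR signalling and the protein Larp1 control their translation and stability together. Several core proteins have paralogs that are used in particular tissues, such as Rpl39l in testis.

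The first sequences show why some rows cannot be read alone. Rps27 and the retrocopy Rps27rt share all 255 bases of coding sequence in GENCODE M21 (GRCm38), so that a read lying within it cannot be assigned to either row. Rpl39, a small protein at the exit tunnel, and its paralog Rpl39l are separable, since 23 bases differ between their coding sequences (85.3% identity). The gene of Rps27 lies at chr3:90212522-90213651 and that of Rpl39 at chrX:37082520-37085402, both on the minus strand, and that of Rpl39l at chr16:10170226-10174911 on the plus strand. Capitals mark the bases of Rpl39 and Rpl39l that differ.
Rps27 and Rps27rt: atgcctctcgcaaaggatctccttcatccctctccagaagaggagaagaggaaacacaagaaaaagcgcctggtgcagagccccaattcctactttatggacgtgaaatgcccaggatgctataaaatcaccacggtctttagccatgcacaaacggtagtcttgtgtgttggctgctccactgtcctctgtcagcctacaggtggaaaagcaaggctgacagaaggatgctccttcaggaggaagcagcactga
Rpl39: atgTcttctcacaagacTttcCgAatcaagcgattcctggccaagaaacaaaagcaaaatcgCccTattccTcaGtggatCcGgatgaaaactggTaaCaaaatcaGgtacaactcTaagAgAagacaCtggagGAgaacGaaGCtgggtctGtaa
Rpl39l: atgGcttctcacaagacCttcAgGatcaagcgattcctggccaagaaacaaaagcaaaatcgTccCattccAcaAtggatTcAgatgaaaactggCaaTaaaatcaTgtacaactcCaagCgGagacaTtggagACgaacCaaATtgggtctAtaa

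The next sequences run from 60 bases before to 20 bases after the start given by RefSeq (GRCm38.p6), on the strand of the gene. They show where pyrimidine runs sit near the starts of 8 members named below. Capitals mark runs of 8 or more C or T. The runs of Rpl13 and Rpl39l and the first run of Rps18 end before the RefSeq start, outside an mRNA that begins there. Those of Rps6, Rpl14, Rpl22l1 and the second of Rps18 span the start or begin just after it.
Rps6: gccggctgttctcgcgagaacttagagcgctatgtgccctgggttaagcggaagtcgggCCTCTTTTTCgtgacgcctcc
Rps18: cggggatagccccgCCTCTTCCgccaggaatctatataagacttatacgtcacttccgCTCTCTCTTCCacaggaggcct
Rpl13: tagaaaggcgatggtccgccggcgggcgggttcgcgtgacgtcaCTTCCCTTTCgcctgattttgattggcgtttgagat
Rpl14: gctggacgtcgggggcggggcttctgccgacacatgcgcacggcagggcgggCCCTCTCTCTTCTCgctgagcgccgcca
Rpl22l1: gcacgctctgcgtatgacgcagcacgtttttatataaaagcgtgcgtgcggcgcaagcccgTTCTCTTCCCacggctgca
Rpl39l: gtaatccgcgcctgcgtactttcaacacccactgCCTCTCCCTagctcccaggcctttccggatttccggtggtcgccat
Rpl7l1: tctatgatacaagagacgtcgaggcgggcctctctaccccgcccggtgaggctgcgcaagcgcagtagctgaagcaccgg
Rps19bp1: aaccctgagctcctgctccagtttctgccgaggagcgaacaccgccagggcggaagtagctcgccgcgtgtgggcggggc

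The windows lie at chr4:86857348-86857427 for Rps6 and chr17:33955646-33955725 for Rps18, both on the minus strand. The window of Rpl13 is at chr8:123102290-123102369, that of Rpl14 at chr9:120571457-120571536, that of Rpl22l1 at chr3:28805448-28805527 and that of Rpl39l at chr16:10170168-10170247, all on the plus strand. The windows of Rpl7l1 (chr17:46782637-46782716) and Rps19bp1 (chr15:80264287-80264366) are on the minus strand. Both hold no such run in these letters.

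RefSeq promoters were matched for 65 of the 86 members. Within 50 bases on either side of the start, a run of 8 or more C or T on the gene strand was found in 48 of 57 core members (84.2%) and in 4 of 8 members outside the core (50%), against 39.3% of all 27025 genes with a promoter. CTTTCC in the same window was found in 31.6% of the core members and 5.4% of all genes. From 250 bases before to 50 after the start on both strands, CCGGAAG was found in 42.1% of core members against 9.9% of all genes, TCTCGCGA in 19.3% against 1.1%, and CACGTG, the E-box, in 10.5% against 8.1%. The pyrimidine run was found in 28 of the 35 core members with a promoter that were lower in KO on both SFA and n6 (80%) and in 20 of the other 22 (90.9%). CCGGAAG was found in 19 of the 35 (54.3%) and in 5 of the other 22 (22.7%), a difference noticed among several motifs and not tested. Whether these starts are the ones used in fat was not tested, and matches describe these letters only.

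The libraries held 43599424 to 62128983 estimated counts, with a median of 50220046. Lpcat3 was 47.66 to 80.99 CPM in KO libraries and 66.02 to 129 CPM in WT libraries, and the groups did not overlap within any diet. Replicate 3 of WT on SFA and replicates 1 and 2 of KO on n6 carried raised B cell or muscle transcripts. Counts of members without these 3 libraries are given beside the results they touch. For these refits, and for those without 1 library, the share of all genes called was not worked out. A lower count there can also come from fewer libraries. Replicate 2 of KO on SFA had a B cell mean of 1.824 log2 CPM, just under the limit of 2 for that list. The others of its group had -1.047 to 0.109. That library was kept in those counts. Without it alone, 49 members were called between KO and WT on SFA.

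Members made up a smaller share of all counts in KO than in WT on each diet. On SFA the share was 1.45% ± 0.0348 in WT and 1.18% ± 0.0165 in KO (mean ± SD, n = 4 each), and on n6 it was 1.49% ± 0.0557 and 1.19% ± 0.033. On n3 the gap was narrower, with 1.41% ± 0.0363 in WT and 1.29% ± 0.0309 in KO. In the deposited TPM, an abundance per transcript length scaled to 1 sum per library, members made up 5.42% ± 0.0403 in WT and 4.29% ± 0.0465 in KO on SFA. The shares were 5.77% ± 0.231 and 4.4% ± 0.0831 on n6 and 5.29% ± 0.112 and 4.6% ± 0.0657 on n3. No KO library reached the lowest WT library of its diet in either unit. A share depends on what the other genes do, so the tests below scale libraries to each other first (TMM, which equalises the typical gene).

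**Figure D1:**
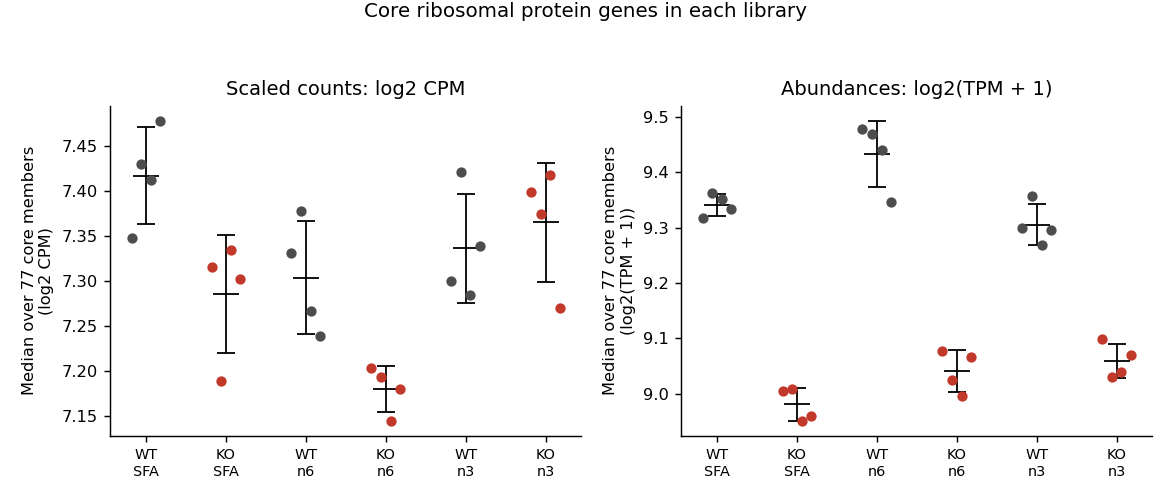
Median level over the 77 core members in each library, as log2 CPM of scaled counts (left) and as log2(TPM + 1) (right), by genotype and diet; dots are libraries (grey WT, red KO) and bars the mean ± SD of 4, and the axes do not start at 0. KO on n3 lies within 7.27 to 7.418 in log2 CPM, overlapping WT on n3 (7.285 to 7.421), while in log2(TPM + 1) it lies at 9.03 to 9.099, below WT on n3 (9.269 to 9.358). Relative to the median of all genes in the same library, log2(TPM + 1) overlaps on n3 (5.325 to 5.527 in KO and 5.404 to 5.553 in WT).

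On the saturated diet, KO tissue had less mRNA for most ribosomal proteins, by small amounts. Of 86 members, 55 were lower in KO and 4 higher by edgeR's quasi-likelihood test at an adjusted p below 0.05, where 19.9% of all 15259 genes tested were lower and 20% higher. The median log2 fold change of the members was -0.157, against -0.003 for all genes. Every KO library was below every WT library for 54 members (18.1% of all genes). Among core members 54 of 77 fell, 30 of 46 in the large and 24 of 31 in the small subunit, and Rpl5 alone rose. In bulk tissue, fewer cells of a type and less RNA per cell cannot be told apart.

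On the omega-6 diet the fall was of like extent. There 64 members were lower in KO and 3 higher (22.1% and 21% of all genes), with a median of -0.175 against 0.001 for all genes. Every KO library was below every WT library for 61 members (19.7% of all genes). Of the core members 63 of 77 fell and none rose by edgeR, 35 of 46 in the large subunit (median -0.159) and 28 of 31 in the small subunit (median -0.222). Without the 3 libraries with raised B cell or muscle transcripts, 45 members were lower and 2 higher on n6, and 48 lower and 3 higher on SFA. The share of all genes called in that refit was not worked out. The members' medians were then -0.183 on n6 and -0.149 on SFA, with all genes at -0.001 and 0.001. Across the 77 core members the log2 fold changes on SFA and on n6, from different libraries, correlated with Pearson's r = 0.803 and Spearman's rho = 0.791. The values on n3 correlated with those on SFA with r = 0.614 (rho = 0.709) and with those on n6 with r = 0.496 (rho = 0.62). Genes are not independent replicates, and these correlations are a description.

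On the omega-3 diet scaled counts showed no such fall, while in TPM most members were lower there too. There 12 members were higher in KO and 1 lower (20.1% and 18.7% of all genes), and the median was 0.033 against -0.028 for all genes. Among core members Rps19, Rpl24, Rpl22, Rpl14 and Rpl11 were higher and Rps4x was lower, and 71 of 77 were not called. Leaving out 1 library at a time gave 7 called members without replicate 3 of WT and 22 without replicate 4 of KO.

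**Figure D2:**
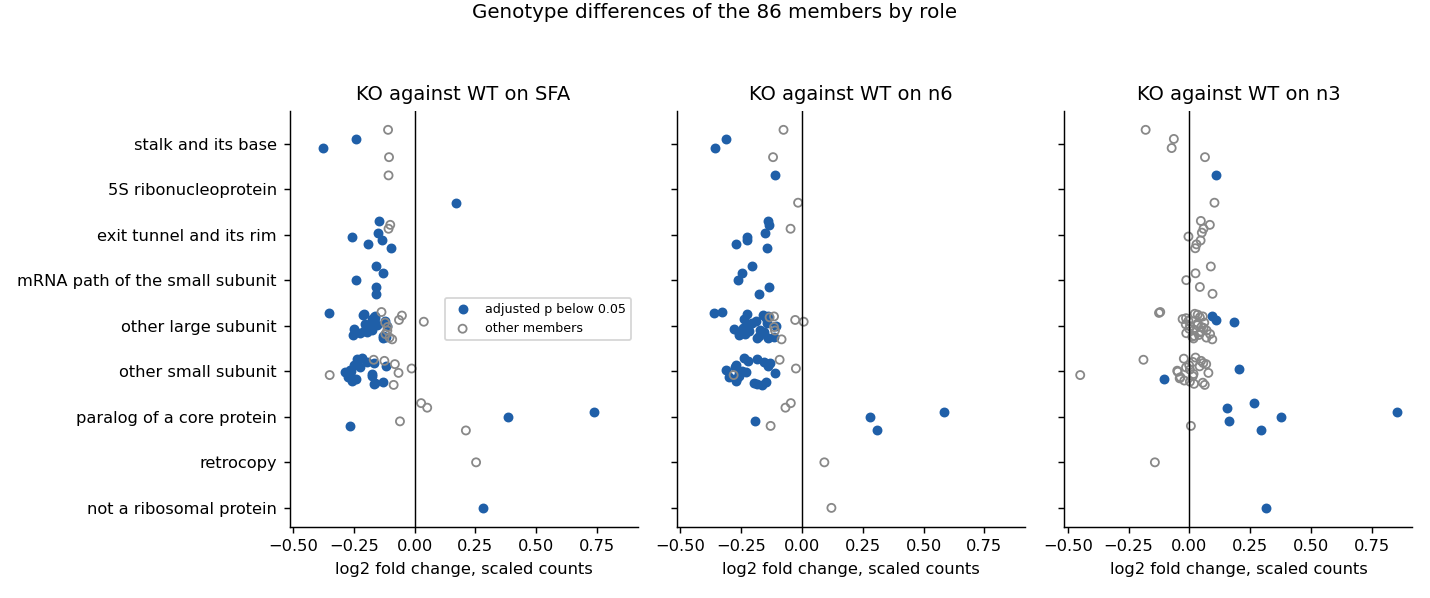
Log2 fold change between KO and WT in scaled counts for each of the 86 members (dots), by place in the ribosome (rows) and diet (panels); filled dots have an adjusted p below 0.05 and open dots do not. Of 77 core members 75 lie left of 0 on SFA and 76 on n6, and 24 do on n3, while several paralogs lie to the right on all 3 diets.

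The stalk proteins Rplp0 and Rplp1 were among the members with the smallest p. Rplp1, which forms the stalk with Rplp2, had 266.8, 271.6, 260.2 and 270.5 CPM in WT on SFA and 212.7, 184, 212.5 and 215.3 in KO. On n6 it had 257.2, 259.7, 248.3 and 235.7 CPM in WT and 200.8, 194.5, 187.6 and 197.8 in KO. The genotypes did not overlap on either diet. On n3 they did, with 232.3, 241.2, 228.4 and 246.6 CPM in WT and 227.3, 240.8, 226.9 and 206.6 in KO. For Rplp1 the log2 fold change on SFA was -0.38 (SE 0.0488, edgeR adjusted p = 1.73e-06) and on n6 it was -0.36 (SE 0.0489, adjusted p = 2.68e-06). On n3 it was -0.07, which was not called (adjusted p = 0.249).

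Rplp0, the base of the stalk and a common reference gene in quantitative PCR, had 427.3, 431, 424.7 and 441.5 CPM in WT on SFA and 372.6, 357.1, 360 and 368.3 in KO. On n6 the values were 452.9, 461.3, 441.8 and 417 in WT and 355.6, 362.6, 348.6 and 360.8 in KO. On n3 they were 402.2, 426.4, 391.4 and 399.1 in WT and 388.9, 390.8, 400.4 and 368.5 in KO, where the groups overlapped. KO was below WT without overlap on SFA and n6, by a log2 fold change of -0.24 (SE 0.0363, adjusted p = 1.14e-05) and of -0.31 (SE 0.0363, adjusted p = 2.77e-07). The -0.06 on n3 was not called (adjusted p = 0.171). Rplp2, the partner of Rplp1, was not called, with -0.11 on SFA (adjusted p = 0.175) and -0.12 on n6 (adjusted p = 0.115).

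Rps4x, an X-linked protein of the small subunit, was the one member row called lower in KO on all 3 diets by edgeR in scaled counts. Its CPM were 297.4, 297.9, 299.8 and 300.5 in WT on SFA and 253.2, 250.5, 256 and 253 in KO. On n3 they were 279.1, 298.4, 286.2 and 291.8 in WT and 275, 273.6, 276.7 and 250.2 in KO, which still did not overlap. The differences on the log2 scale were -0.24 (SE 0.0367, adjusted p = 1.53e-05) on SFA, -0.27 (SE 0.0367, adjusted p = 2.47e-06) on n6 and -0.10 (SE 0.0367, adjusted p = 0.029) on n3.

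Rps6, the substrate of the S6 kinases, was 262.7 to 269.8 CPM in WT on SFA and 235.2 to 251.9 in KO, with a log2 fold change of -0.13 (SE 0.0381, adjusted p = 0.00896). On n6 it was 244.5 to 272.3 CPM in WT and 233.7 to 242.2 in KO (-0.15, SE 0.0381, adjusted p = 0.0033). Rpsa, a small subunit protein also known as a laminin receptor, fell by 0.16 on the log2 scale on SFA (adjusted p = 0.007) and by 0.18 on n6 (adjusted p = 0.00253). Rpl3, a large subunit protein near the site of peptide bond formation, fell by 0.11 on SFA (adjusted p = 0.00623) and by 0.10 on n6 (adjusted p = 0.00899). Neither Rps6, Rpsa nor Rpl3 was called on n3.

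**Figure D3:**
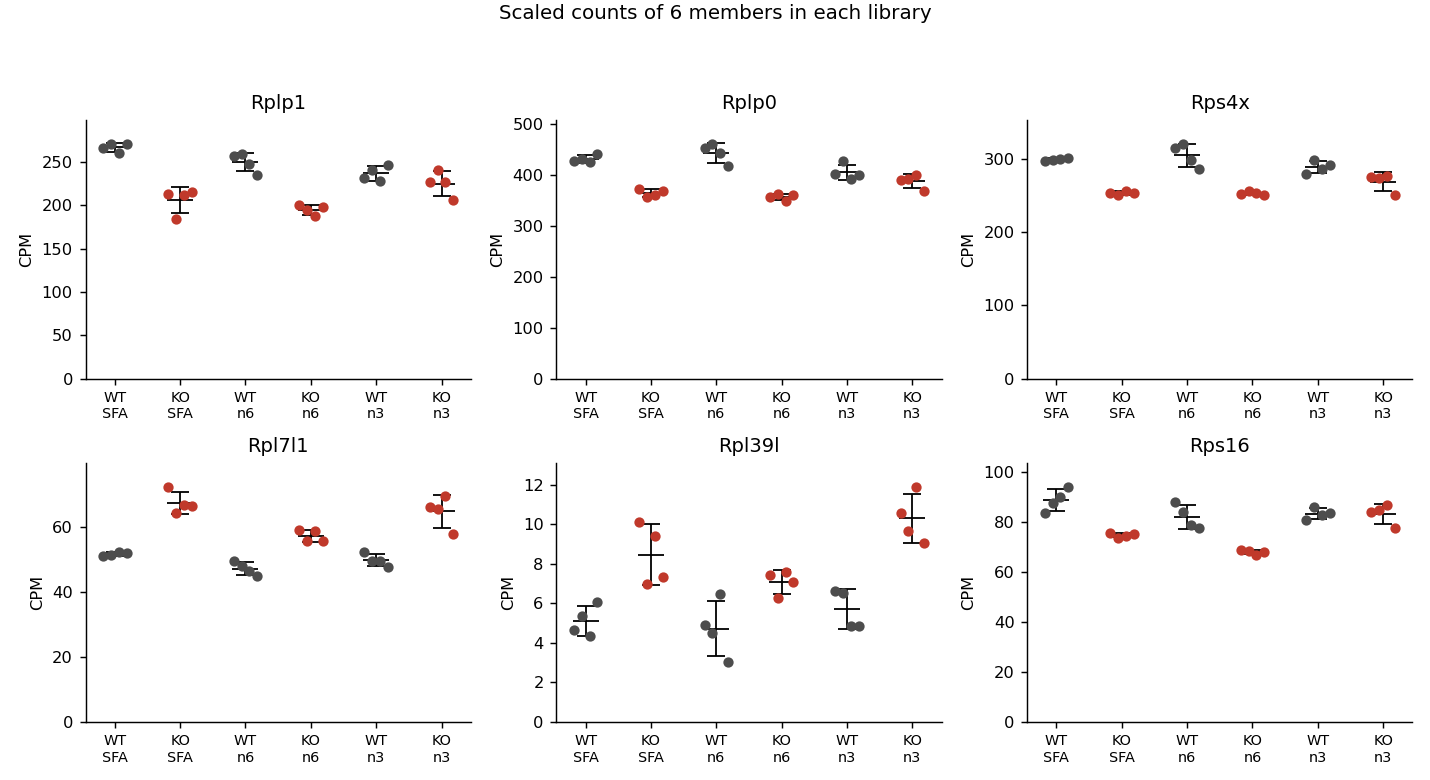
CPM of 6 members in each library by genotype and diet; dots are libraries (grey WT, red KO) and bars the mean ± SD of 4, with axes from 0. Rplp1, Rplp0, Rps4x and Rps16 are lower in KO on SFA and n6, while Rpl7l1 and Rpl39l are higher in KO on all 3 diets.

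Single paralogs rose in KO on each diet, while most core members fell on SFA and n6 and were not called on n3. Whether the paralogs differ from the core as a group was not tested. Of 7 paralogs 2 rose and 1 fell on SFA, 3 rose and 1 fell on n6, and 6 rose and none fell on n3, where between 18.7% and 22.1% of all genes were called in each direction. Their median log2 fold changes were 0.052, -0.046 and 0.264. In TPM 2 rose and 4 fell on SFA (6.97% and 35.5% of all genes), and 1 rose and 4 fell on n6 (7.79% and 44.8%). On n3 1 rose and 1 fell in TPM (6.02% and 49.2%). The tallies include Rps27rt, which fell on SFA in scaled counts and held 96.78% of the counts of the Rps27 family. They also include Rps4l, typed as a pseudogene, which rose on n6 and n3 in scaled counts.

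Rpl7l1, the paralog of Rpl7 that is known from ribosome assembly, had 51.04, 51.29, 52.13 and 51.72 CPM in WT on SFA and 72.23, 64.25, 66.47 and 66.17 in KO. On n3 it had 52.23, 49.53, 49.53 and 47.59 in WT and 65.99, 65.52, 69.36 and 57.61 in KO. No KO library overlapped WT on any of the 3 diets. KO exceeded WT on the log2 scale by 0.38 (SE 0.0472, adjusted p = 7.42e-07) on SFA, by 0.28 (SE 0.0475, adjusted p = 4.45e-05) on n6 and by 0.38 (SE 0.0474, adjusted p = 1.39e-06) on n3. In TPM Rpl7l1 was called on SFA, and its 0.19 on n6 and on n3 had limma adjusted p of 0.0553 and 0.0542. Rpl7 itself went the other way on SFA, with a mean of 287.5 CPM in WT and 264.9 in KO (-0.12 on the log2 scale, adjusted p = 0.011).

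Rpl39l, the testis-enriched paralog printed above, was a low transcript with 4.632, 5.341, 4.332 and 6.047 CPM in WT on SFA and 10.13, 6.969, 9.388 and 7.352 in KO. On n3 it had 6.637, 6.537, 4.833 and 4.834 in WT and 10.56, 9.676, 11.9 and 9.066 in KO. The groups did not overlap on SFA or n3, and on n6 they did, with 3.035 to 6.46 in WT and 6.257 to 7.567 in KO. It had the largest rise of the members, with log2 fold changes of 0.74 (SE 0.172, adjusted p = 0.00164), 0.58 (SE 0.175, adjusted p = 0.00962) and 0.85 (SE 0.171, adjusted p = 0.000441) on SFA, n6 and n3. Rpl39, its core counterpart, fell on SFA (-0.19, adjusted p = 0.0141) and n6 (-0.27, adjusted p = 0.000972) and was 0.03 on n3 (adjusted p = 0.743).

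The other paralogs moved on fewer diets. Rps4l, related to Rps4x, was higher on n6 (0.31, adjusted p = 0.0111) and n3 (0.29, adjusted p = 0.0169), while its 0.21 on SFA had an adjusted p of 0.0794. Rpl22l1, which can replace Rpl22, was higher on n3 (0.26, adjusted p = 0.00522), as was Rpl36al, the autosomal paralog of Rpl36a (0.15, adjusted p = 0.0291). Rps27l, a p53-inducible paralog of Rps27, was lower on n6 (-0.19, adjusted p = 0.0193) and higher on n3 (0.16, adjusted p = 0.0495). Rps27rt was lower on SFA (-0.27, adjusted p = 0.00127), and on n6 its -0.13 had an adjusted p of 0.0947. Rps19bp1 was higher on SFA (0.28, adjusted p = 0.00306) and n3 (0.31, adjusted p = 0.0015), with 0.12 on n6 (adjusted p = 0.196). The directions of Rps27l and Rpl36al on n3 and of Rps19bp1 on n6 turn negative in TPM.

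Whether the genotype difference varied with diet was tested by an interaction over all 24 libraries. It was called for 24 members (6.44% of all genes), with the smallest p for Rpl13 (adjusted p = 0.00864), Rps18 (adjusted p = 0.0116) and Rps16 (adjusted p = 0.0122). Rpl13, a large subunit protein, had log2 fold changes of -0.21 on SFA, -0.23 on n6 and 0.02 on n3. Rps18, at the head of the small subunit, had -0.22, -0.28 and -0.01, and Rps16, also in the head, had -0.25, -0.27 and -0.001. The genotype difference on n3 was above that on n6 for 40 members and below it for none by edgeR (4.48% and 4.62% of all genes). It was above that on SFA for 3 members, Rpl13, Rplp1 and Rps16 (0.256% of all genes higher and 0.564% lower). Between n6 and SFA it differed for 0 members by edgeR, also at an unadjusted p below 0.05 (0.465% of all genes higher and 0.433% lower). The count for the interaction rests on single libraries: it was 5 without replicate 3 of WT on n3, 72 without replicate 4 of KO on n3, and 6 without the 3 libraries with raised B cell or muscle transcripts.

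Among the diets themselves, KO tissue on n3 had more ribosomal protein mRNA than KO tissue on n6. In scaled counts 79 members were higher and none lower (15.8% and 10.3% of all genes), with a median log2 fold change of 0.218 against 0.016. The groups did not overlap for 63 members (11.2% of all genes). Rps16 had 68.74, 68.3, 66.59 and 68.04 CPM in KO on n6 and 83.67, 84.82, 86.61 and 77.31 in KO on n3 (log2 fold change 0.29, SE 0.0416, adjusted p = 0.000685). Rps24, a small subunit protein mutated in Diamond-Blackfan anaemia, differed by 0.26 (SE 0.0427, adjusted p = 0.00091) and Rps7 by 0.23 (SE 0.0423, adjusted p = 0.00143). Without the 3 libraries with raised B cell or muscle transcripts, 56 members were called, and the share of all genes in that refit was not worked out. In TPM 19 members were higher and none lower (2.15% and 20.1% of all genes), with a median of 0.064 while the median gene was at -0.099.

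The other diet comparisons called few members. In WT, n6 against SFA called 8 members lower and none higher (13.1% and 11.6% of all genes), led by Rpl22 (-0.17, adjusted p = 0.00621), Rps19 (-0.175, adjusted p = 0.0173) and Rps24 (-0.14, adjusted p = 0.0174). In TPM this comparison called 36 members higher and none lower, where 36.9% of all genes were higher and 3.47% lower, and the members' median of 0.088 was below the 0.140 of all genes. In KO, n6 against SFA called 18 members lower and none higher (13.8% and 8.92% of all genes), led by Rpl36al (-0.28, adjusted p = 0.00127), Rpl7l1 (-0.23, adjusted p = 0.00152) and Rps19bp1 (-0.36, adjusted p = 0.00165). In KO, n3 against SFA called Rps23 (0.22, adjusted p = 0.0183) and Rpl31 (0.27, adjusted p = 0.0414) higher and none lower (0.826% and 0.636% of all genes), and 40 members without replicate 4 of KO on n3. In WT, n3 against n6 called Rps4l higher (0.27, adjusted p = 0.0467) and Rplp0 lower (-0.13, adjusted p = 0.0137), where 9.82% of all genes were higher and 8.61% lower. In WT, n3 against SFA called no member by edgeR, where 0.0852% of all genes were higher and 0.0590% lower. At an unadjusted p below 0.05, 23 members were lower and none higher there (7.02% and 7.65% of all genes), and DESeq2 called 5 lower and none higher (1.23% and 1.04% of its genes). These comparisons share groups with each other and with the genotype comparisons.

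Scaled counts and TPM were then compared for each member. In TPM 78 members were lower and 2 higher on SFA (35.5% and 6.97% of all genes), 80 lower and 1 higher on n6 (44.8% and 7.79%), and 75 lower and 1 higher on n3 (49.2% and 6.02%). The median log2 fold changes of the members in TPM were -0.325, -0.385 and -0.205. All genes were shifted in TPM too, by medians of -0.124, -0.159 and -0.187. On n3 the members thus had a median of 0.033 in scaled counts and -0.205 in TPM, with the median gene at -0.028 and -0.187. When TPM were scaled by TMM in their turn, the medians of the members were -0.166, -0.188 and 0.008, near those of the scaled counts. With library totals alone as scaling, the counts gave -0.293, -0.313 and -0.136, with 77 members lower and 2 higher on SFA (39.5% and 9.33% of all genes), 79 and 2 on n6 (42.1% and 11.2%), and 68 and 2 on n3 (47.8% and 8.95%). The TMM factors were 0.9 to 1.005 in KO libraries and 1 to 1.109 in WT libraries, and within a diet no KO factor reached the lowest WT factor.

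The direction on n3 thus turned with the scaling, and that on SFA and n6 did not. Rpl11, which binds 5S RNA together with Rpl5, was called higher on n3 in scaled counts (0.11, adjusted p = 0.0483) and lower in TPM (-0.13, limma adjusted p = 0.000182). Rpl14 (0.09 and -0.13) and Rpl22 (0.11 and -0.16) did the same, and Rps19 (0.20 and -0.01) and Rpl24 (0.18 and -0.05) were called in counts alone. The estimated count per TPM, which follows the length that Salmon assigned to a gene, moved little in most core members. Relative to the median gene its log2 difference between KO and WT had medians of 0.005, 0.013 and 0.008 on SFA, n6 and n3. Among single members it was below 0 on SFA, n6 and n3 in Rpl7l1 (-0.135, -0.103 and -0.038), among others. It was above 0 on all 3 in many members, among them Rpl22 (0.063, 0.089 and 0.042), Rpl12 (0.083, 0.035 and 0.071) and Rps12 (0.097, 0.132 and 0.008). In Rps27, a row of few counts, it changed sign between diets (-0.237, 0.113 and 0.051).

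**Figure D4:**
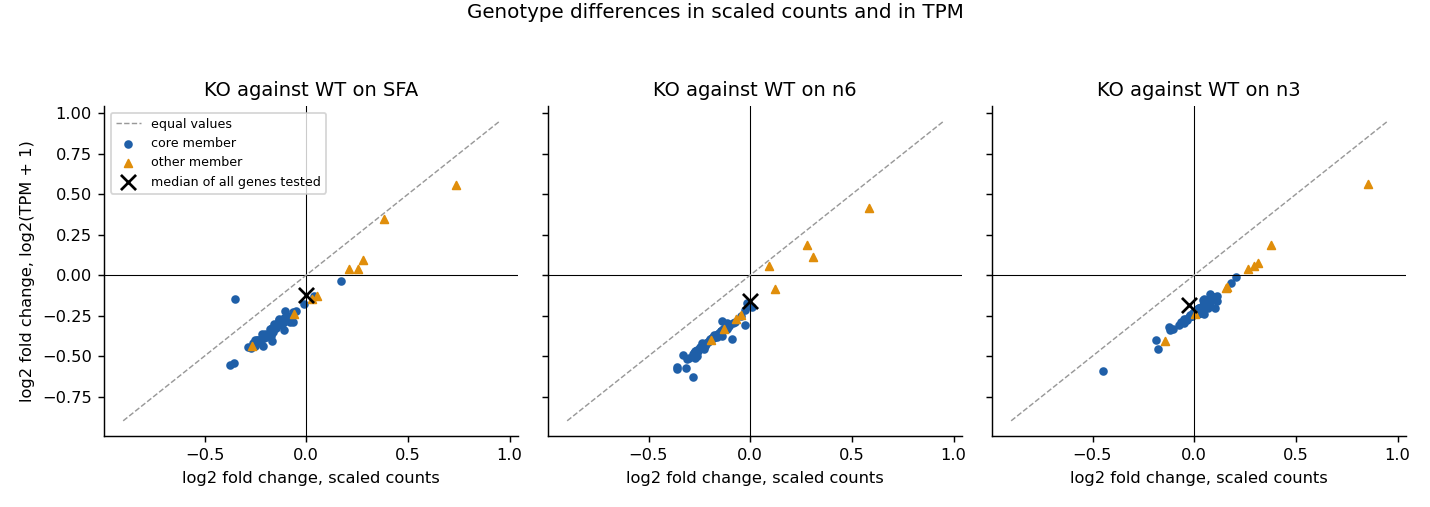
Log2 fold change between KO and WT in TPM (vertical, log2(TPM + 1)) against that in scaled counts (horizontal) for each member, by diet; circles are core members, triangles other members, the cross is the median of all genes tested and the dashed line marks equal values. Members lie below the dashed line on each diet except Rps27 on SFA, and on n3 53 of 77 core members lie right of 0 in counts while nearly all lie below 0 in TPM.

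Levels between members were compared in TPM, which is per length. Rplp1 had the highest mean over the 24 libraries, 1546 TPM, followed by Rps24 with 1418, and Rpl12 the lowest, 18.02 TPM. Rpl39l (21.79), Rps27 (23.33) and Rps12 (24.54) came next from the bottom. Core proteins are present in equal number per ribosome with few exceptions, so the copies of these genes were examined.

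For 76 members the coding sequence had a near-identical copy in another row (at least 95% identity over at least 80% of it), 538 such rows in all outside the members. In 6 members the row held less than 50% of the counts of member and copies together, and in 68 it held more than 95%. Rps12 held 3.11% of its family and Rps12-ps3 had a mean of 11509 counts against 370 in Rps12. Rps27 held 3.22%, with Rps27rt, identical in the sequence printed above, at 4139 mean counts against 138. Rpl12 held 5.39%, Rpl37rt 7.24%, Rpl5 8.83% and Rpl10 31.73%. The copy rows with most of the counts were Gm10275 for Rpl12, Gm15500 for Rpl5 and Rpl10-ps3 for Rpl10, each identical to the member over its whole coding sequence (498, 894 and 645 bases). The sources used here do not say how Salmon shared reads between such rows.

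Summed with their copies, Rpl5, Rpl12, Rps12 and Rpl10 were lower in KO on SFA and n6, as most core members were. Rpl5 was called higher in KO on SFA alone (0.17, adjusted p = 0.0447), and its family of 6 rows was lower (-0.12, SE 0.0361, adjusted p = 0.0126). Rpl12, a protein at the base of the stalk, had -0.11 on SFA alone (adjusted p = 0.283) and -0.30 summed (SE 0.0465, adjusted p = 1.92e-05). Rps12 had -0.17 alone (adjusted p = 0.193) and -0.22 summed (SE 0.0478, adjusted p = 0.000878). Rpl10, joined late to the large subunit, had -0.14 alone (adjusted p = 0.272) and -0.25 summed (SE 0.0364, adjusted p = 7.04e-06). On n6 the summed values were -0.14 for Rpl5, -0.34 for Rpl12, -0.20 for Rps12 and -0.32 for Rpl10. On n3 the family of Rpl10 alone of these 4 was called (-0.12, adjusted p = 0.0149). Of 84 families 62 were lower and 3 higher on SFA (20.1% and 19.9% of all rows tested), 67 and 3 on n6 (21.7% and 21.4%), and 2 and 8 on n3 (20.5% and 18.8%).

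**Figure D5:**
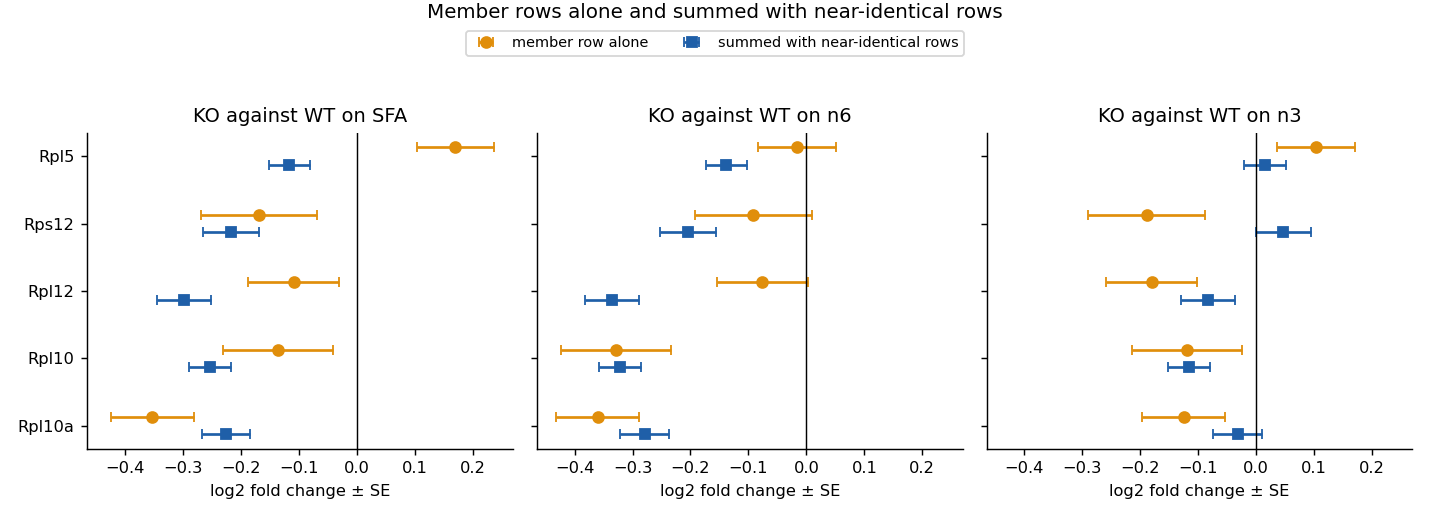
Log2 fold change ± SE between KO and WT for 5 members with abundant copies, from the member's row alone (circles) and from the sum of member and near-identical rows (squares), by diet. The summed values lie at or below -0.116 on SFA and n6, while the Rpl5 row alone lies at 0.17 on SFA.

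Other genes of translation were read from lists chosen by function. Their counts stand against all genes tested, of which on SFA 20% were higher and 19.9% lower in scaled counts. The shares were 21% and 22.1% for n6 and 20.1% and 18.7% for n3. In TPM 6.97% of all genes were higher and 35.5% lower for SFA, 7.79% and 44.8% for n6, and 6.02% and 49.2% for n3. Of the ribosomal proteins outside the naming pattern 3 were tested, and Rack1, a scaffold of the small subunit, fell on SFA (-0.18, adjusted p = 0.000368) and n6 (-0.29, adjusted p = 8.85e-07), as did Fau, the precursor of a small subunit protein (-0.21 and -0.20). Among 6 genes of elongation 1 fell on SFA, 3 fell on n6 and 3 rose on n3, with Eef1b2, an exchange factor of elongation factor 1, at -0.19, -0.24 and 0.00. In TPM 5, 6 and 5 of the 6 fell. Among 16 other TOP mRNAs 5 fell and 1 rose on SFA, 8 fell and 2 rose on n6, and 2 fell and 5 rose on n3, against 14, 15 and 12 that fell in TPM. Pabpc1, the poly(A) binding protein, fell on all 3 diets (-0.30, -0.39 and -0.18) and Eif4a2, an RNA helicase of initiation, rose on all 3 (0.37, 0.61 and 0.44).

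Genes that build ribosomes were read next. Of 44 assembly genes 17 rose and 1 fell on SFA, 9 rose and 5 fell on n6, and 15 rose and 2 fell on n3. The 9 of 44 on n6 are near the share of all genes. In TPM 1 rose on each diet and 9, 22 and 21 fell, which on SFA is a smaller share than that of all genes and on n6 and n3 is near it. Bysl, needed for small subunit maturation, rose by 0.435, 0.377 and 0.433, and was positive in TPM on all 3 (0.250, 0.155 and 0.184). Ltv1, another small subunit factor, rose on SFA (0.30) and n3 (0.29). Of 14 genes of RNA polymerase I 6 rose and 1 fell on SFA, 4 rose and 2 fell on n6, and 4 rose and 1 fell on n3, among them Polr1a, its largest subunit (0.125, 0.144 and 0.177), whose TPM differences were -0.059, 0.054 and -0.075.

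Of 15 regulators of ribosomal protein mRNAs 7 rose and 1 fell on SFA, 6 rose and 1 fell on n6, and 6 rose and 1 fell on n3. In TPM 1 rose on each diet and 4, 5 and 6 fell, smaller shares than those of all genes. Larp1, which holds TOP mRNAs, rose by 0.21, 0.13 and 0.19 in scaled counts, with 0.055, -0.060 and -0.035 in TPM, and Eif4ebp1, an inhibitor of cap-dependent initiation under mTOR, by 0.245, 0.388 and 0.501, with 0.115, 0.192 and 0.284 in TPM. Of 9 genes with S6 kinase names Rps6ka4 fell on all 3 diets (-0.25, -0.24 and -0.13). Of 78 mitochondrial ribosomal proteins 39 rose on SFA, 43 on n6 and 73 on n3 and none fell, with medians of 0.148, 0.163 and 0.288. In TPM those medians were -0.027, -0.050 and 0.055.

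Some markers of cell types differed between genotypes as well. Of all genes tested, 20% were higher and 19.9% lower in KO on SFA. The shares were 21% and 22.1% on n6 and 20.1% and 18.7% on n3. Adipocyte counts of 2 or 3 of 10, and counts of 1 of 7 or 1 of 11, are near or below those shares. Of 10 adipocyte markers 2 were higher and 4 lower in KO on SFA. On n6 4 were higher and 3 lower, and on n3 3 were higher and 3 lower. Their mean log2 CPM was 10.466 to 10.762 in KO and 10.980 to 11.102 in WT on SFA. On n6 it was 10.505 to 10.711 in KO and 10.751 to 10.945 in WT, so that this mean was lower in KO without overlap on both diets. On n3 it was 10.611 to 10.923 in KO and 10.847 to 11.015 in WT, which overlapped. The summed CPM of the adipocyte list overlapped on each diet. The sum was 28950 to 33930 in KO and 32540 to 34790 in WT on SFA. On n6 it was 28210 to 31170 and 27840 to 30590, and on n3 29360 to 37480 and 30800 to 34100. Of 10 macrophage markers 10 were lower in KO on SFA, 9 on n6 and 6 on n3, and their sum was 763.5 to 1020 CPM in KO and 1276 to 1447 in WT on SFA. On n6 it was 996.1 to 1356 in KO and 1303 to 1918 in WT, and on n3 1002 to 1339 and 1285 to 1569. Of 7 progenitor markers 6 were lower on SFA, 4 on n6 and 1 on n3, with sums of 959.5 to 1200 CPM in KO and 1370 to 1429 in WT on SFA. T cell markers summed to 38.62 to 59.44 CPM in KO and 25.69 to 31.65 in WT on SFA, 27.98 to 48.93 and 14.29 to 17.7 on n6, and 35.09 to 43.05 and 22.47 to 29.32 on n3, and 10 of 11 were called higher on n6. On SFA and n3 1 of 11 was called higher. The mean log2 CPM of the T cell list overlapped between genotypes on each diet. On SFA it was 0.523 to 1.048 in KO and 0.760 to 1.156 in WT. The ranges were 0.431 to 1.884 and 0.134 to 0.454 on n6, and 0.546 to 1.191 and 0.577 to 1.155 on n3. Of 10 B cell markers 6 were higher in KO on n6, and of 8 tested markers of gland epithelium 6 were higher in KO on n3. The gland list was near the floor, with sums of 2.293 to 6.941 CPM in KO and 0.6251 to 0.8342 in WT on n3. It varied widely between libraries, from 0.7743 to 9.59 CPM in KO on SFA. Of 7 endothelial markers 5 were higher in KO on SFA, 1 was higher on n6 and 3 were lower on n3. Their sum was 956 to 1319 CPM in KO and 805.7 to 1022 in WT on SFA, 1323 to 1418 and 1057 to 1211 on n6, where KO was higher without overlap, and 811.6 to 1174 and 939 to 1279 on n3. No marker of these lists was at 0 in every library. Their part in the differences of the ribosomal proteins was not tested.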

How the data were processed

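The authors deposited estimated counts from Salmon in one table and TPM, which sum to the same total in each library, in another. The submitters' processing notes name fastp 0.23.2, Salmon and mm10. The sources used here do not give Salmon's version, options or annotation. Both tables have 35727 rows and 24 libraries. RNA was captured by poly-A, per the labels' protocols.

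Counts were rounded, and filterByExpr (10 counts, 15 in total) kept 15259 genes holding 99.98% of counts. Groups were compared by edgeR 4.0.16 in R 4.3.3 (quasi-likelihood, robust, TMM, 1 coefficient per group, 18 residual degrees of freedom). TPM were tested with limma 3.58.1 on log2(TPM + 1), which understates changes of low genes. P-values were adjusted by Benjamini-Hochberg across every gene tested, with a threshold of 0.05. CPM were computed from the counts with TMM scaling. Coding sequences were compared with GENCODE M21 by blastn 2.17.0. The fits were tested on simulated data.

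Members and lists were chosen with earlier results of these data known. Named members were Rplp0, Rps6, Rpsa and Rpl3, all paralogs and members that are no ribosomal protein, the 3 smallest p in each direction of each comparison and of the interaction, the extremes of mean TPM and of counts against TPM, and 3 genes of each list. Other core members were named after their values were seen.

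Alternatives were RLE scaling, library totals, TMM without the members, without the 100 most abundant genes, no filter, DESeq2 1.42.0, only the groups compared, a replicate block, TPM with pseudocounts of 1 and 0.1, without filter and with TMM, the B cell list as covariate, leaving out the libraries whose B cell list averaged above 2 or whose muscle list averaged above 4 in log2 CPM, and dropping each library in turn. Summing near-identical copies was added after seeing the data. Replicate numbers were not treated as pairs: in 0 of 9 comparisons did every pair correlate above 0.1 (range -0.12 to 0.237).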

Additional observations from a re-analysis of the deposited data

Results flagged for a closer look

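In edgeR's interaction test over 24 libraries, the genotype difference was called as varying among the diets for 24 members (6.44% of all genes). The adjusted p of this test was 0.00864 for Rpl13, 0.0116 for Rps18 and 0.0122 for Rps16. The count of members rested on single libraries. It was 5 without replicate 3 of WT on n3 and 72 without replicate 4 of KO on n3.

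Single libraries stood apart from the other 3 of their group in 12 of 168 groups of 4 values, by a gap above Dixon's 95% limit. Chance gives this in about 1 of 20 independent groups. These groups are members read in the same libraries and are not independent, so the 12 cannot be judged against that rate. In replicate 4 of KO on n3, Rpl3 was 294 CPM (the others 304 to 304.1), Rps4x 250.2 (273.6 to 276.7), Rps7 185.7 (204.4 to 207.9), Rps27rt 72.57 (87.94 to 89.86) and Rpl14 153.6 (165.9 to 168.2). In replicate 2 of KO on SFA, Rplp1 was 184 CPM (212.5 to 215.3) and Rps27rt 71.55 (75.28 to 75.64). In replicate 2 of KO on n6, Rps6 was 242.2 CPM (233.7 to 235) and Rpsa 337.4 (326.7 to 327.7). In replicate 1 of WT on SFA, Rps27l was 33.39 CPM (37.03 to 37.5) and Rpl11 236.3 (248.3 to 248.6), and in replicate 3 of that group Rpl14 was 166.8 CPM (162.9 to 163.5).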

How the results depend on the processing

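The falls on SFA and n6 kept their direction under each alternative run, with medians of -0.183 to -0.126 and -0.192 to -0.148 when 1 library was left out and 49 to 65 and 55 to 70 called members. With library totals the medians were -0.293 on SFA, -0.313 on n6 and -0.136 on n3. With TPM they were -0.325, -0.385 and -0.205, and -0.326, -0.385 and -0.207 with a pseudocount of 0.1. The median on n3 was 0.003 to 0.078 with 1 library left out. The cause of the shifts below was not tested.

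The counts in this paragraph join both directions, which can differ between settings, and the share of all genes is not given for most of them. Members called on n3 were 70 with library totals, 8 without filter, 7 with only the groups compared, 76 with TPM at both pseudocounts, 74 with TPM without filter, and 7 to 22 with 1 library left out. With library totals 68 were lower and 2 higher (47.8% and 8.95% of all genes), and with TPM 75 and 1 (49.2% and 6.02%). In the main fit most were higher. For n6 against SFA in WT the members called were 18 with DESeq2, 36 with TPM, 34 with TPM without filter, 14 with the B cell covariate, 2 without the 3 libraries with raised B cell or muscle transcripts, 15 with copies summed and 1 to 26 with 1 library left out. The 36 with TPM were all higher (36.9% of all genes), while those of the main fit were all lower. For n3 against SFA in WT the members called were 5 with DESeq2 and 0 with any library left out. For n3 against n6 in WT they were 18 with library totals, 1 without filter, 5 with DESeq2, 1 with the replicate block, 52 with TPM, 50 with TPM without filter, 1 with TMM-scaled TPM, 1 without these 3 libraries and 1 to 6 with 1 library left out. For n6 against SFA in KO they were 6 with library totals, 10 with TPM without filter, 5 without these 3 libraries and 7 to 34 with 1 left out. For n3 against SFA in KO they were 28 with library totals, 1 without the most abundant genes, 1 without filter, 11 with DESeq2, 0 with only the groups compared, 14 with TPM, 10 with TPM without filter, 1 with TMM-scaled TPM, 1 with the B cell covariate, 1 without these 3 libraries, 0 with copies summed and 0 to 40 with 1 left out. For n3 against n6 in KO they were 19 with TPM, 14 with TPM without filter and 66 to 81 with 1 left out. For the interaction they were 14 without the most abundant genes, 10 without filter, 51 with DESeq2, 43 and 42 with TPM at pseudocounts of 1 and 0.1, 40 with TPM without filter, 15 with TMM-scaled TPM, 10 with the B cell covariate, 6 without these 3 libraries and 5 to 72 with 1 left out.

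The replicate block gave 56, 66 and 10 called members in the genotype comparisons on SFA, n6 and n3 and 17 in the interaction, and same-numbered samples were not treated as pairs. Log2 fold changes of named members changed sign in 51 refits. With TPM, Rpl5 on SFA was -0.034 (-0.035 at pseudocount 0.1), Rps19bp1 on n6 -0.086 (-0.088), and on n3 Rps27l -0.073, Rpl36al -0.081, Rpl11 -0.132, Rpl22 -0.157, Rps19 -0.012, Rpl13 -0.208, Rpl24 -0.051 and Rpl14 -0.134. In n6 against SFA in WT, TPM gave 0.031 for Rpl22 and 0.006 for Rps24. With library totals, Rps19bp1 on n6 was -0.018, and on n3 Rps27l -0.007, Rpl36al -0.016, Rpl11 -0.058, Rpl22 -0.06, Rpl13 -0.146 and Rpl14 -0.074. With copies summed, Rpl5 on SFA was -0.116. On n3, Rps16 was 0.009 with RLE scaling and with DESeq2, 0.004 without replicate 2 of WT and 0.032 without replicate 4 of KO, Rps18 was 0.006 and 0.013 without these libraries, and Rpl13 was -0.013 without replicate 3 of WT. With 1 library left out, Rpl13 ranged from -0.013 to 0.05, Rps18 from -0.049 to 0.013 and Rps16 from -0.031 to 0.032.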
